A study of Homo sapiens with 2 samples.

Results

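Canonical histone genes encode the bulk of the H1, H2A, H2B, H3 and H4 proteins that package newly copied DNA. They were taken here by their symbols: every listed gene whose name begins with HIST1H, HIST2H, HIST3H or HIST4H, with pseudogenes left out. This gave 70 members of the 36601 listed genes: 6 for H1, 17 for H2A, 18 for H2B, 14 for H3 and 15 for H4. The rule also asked for their UMIs (unique molecular identifiers, each standing for 1 captured transcript) in cycling and other cells, by lineage and by library, so the module was selected on its UMIs in cycling against other cells, and those contrasts are given as descriptions.

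The cells came from inner ear organoids grown from WA25 human embryonic stem cells that carry a SOX2 nuclear tdTomato reporter (cell line SOX2nT), and reporter-positive cells were sorted at day 40 in both groups. One group is labelled GelNB-CH, a dynamic click hydrogel, and the other Matrigel, a basement membrane extract, and the study compares organoids in these 2 matrices. The growth text is the same for both: FGF-2, SB-431542, BMP-4 and growth factor-reduced Matrigel in the medium at the start, then FGF-2 with LDN193189, then CHIR99021 added to these, and embedding on day 11 in GelNB-CH with PEG4SH, with oDex later. It gives no embedding step in Matrigel, so how the Matrigel group was embedded rests on its label alone. Each group is 1 library, with no replicate, so no difference between the groups could be set against a replicate spread and no test was made.

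Canonical histone mRNAs are unlike most mRNAs. They are made in S phase together with DNA, end in a stem-loop bound by the protein SLBP rather than in a poly(A) tail, and are destroyed when replication ends. The oligo-dT primers of the 3′ assay used here catch poly(A) tails, so most of these transcripts are captured poorly, by internal A-rich stretches or by the minority of copies that carry a tail. A few histone genes are known to make longer polyadenylated transcripts as well, which resting and differentiated cells keep. Counts from a 3′ assay do not scale with transcript length, and levels of different genes below are counts per 1000000 UMIs of the pooled cells (CPM), which reflect capture as well as abundance.

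The 3′ ends show the feature that sets the family apart. In GENCODE v29 gene models, 30 members had a transcript with a match to the histone stem-loop, and the matches came in 4 versions, shown because they mark the end that carries no poly(A) tail. The capitals mark the paired stem and the lower case the loop, 5′ to 3′.
Stem-loop of 17 members: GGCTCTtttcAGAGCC
Stem-loop of 5 members: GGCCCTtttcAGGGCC
Stem-loop of 5 further members: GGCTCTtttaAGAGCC
Stem-loop of 3 members: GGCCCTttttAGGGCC
Of 83048 other protein-coding transcripts, 184 (0.222%) held such a match anywhere and 12 (0.0145%) in their last 150 bases. Models of 33 members hold the coding part only, so their ends could not be read, and none of the 6 H1 genes gave a match. A polyadenylation signal, AATAAA, lay in the last 50 bases of a transcript of 21 members, counted by gene. It lay there in 35.5% of the other protein-coding transcripts, counted by transcript. The units differ and the ends of 33 members could not be read, so these values cannot be compared.

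Promoters were read for 63 members from RefSeq (GRCh38.p14), from 250 bases before to 50 after the start site. HIST1H4A, HIST1H4C, HIST1H2AH, HIST1H3I, HIST1H3J, HIST2H2AA3 and HIST2H2AA4 had no entry. Each motif was searched on both strands, and matches to different motifs were allowed to overlap. TATAAA was in 41 of the 63 (11.5% of 35116 promoters), CCAAT in 53 (34.6%) and the octamer ATTTGCAT in 25 (1.77%). The octamer was in 11 H2A and 14 H2B promoters and in no H1, H3 or H4 promoter, and CCAAT was in 3 of 13 H4 promoters against all 50 of the other classes. The stretches upstream of 4 members are printed in lower case with these motifs in capitals: HIST2H2AC and HIST3H2BB because each is shared with a partner that differed from it in cycling cells, HIST1H1B for its steep cycling pattern, and HIST1H3D for its difference between libraries.
HIST2H2AC, chr1:149886668-149886917, plus strand: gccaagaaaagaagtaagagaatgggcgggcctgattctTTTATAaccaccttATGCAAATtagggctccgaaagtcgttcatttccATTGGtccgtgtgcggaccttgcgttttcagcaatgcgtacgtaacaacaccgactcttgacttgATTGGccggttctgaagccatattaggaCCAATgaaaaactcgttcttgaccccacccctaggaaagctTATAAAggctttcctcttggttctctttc
HIST3H2BB, chr1:228457853-228458102, plus strand: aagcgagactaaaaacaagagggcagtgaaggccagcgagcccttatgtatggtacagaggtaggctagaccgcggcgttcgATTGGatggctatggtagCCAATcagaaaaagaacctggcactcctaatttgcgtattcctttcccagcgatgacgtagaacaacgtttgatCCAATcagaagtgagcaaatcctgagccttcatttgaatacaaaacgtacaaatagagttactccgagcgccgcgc
HIST1H1B, chr6:27867589-27867838, minus strand: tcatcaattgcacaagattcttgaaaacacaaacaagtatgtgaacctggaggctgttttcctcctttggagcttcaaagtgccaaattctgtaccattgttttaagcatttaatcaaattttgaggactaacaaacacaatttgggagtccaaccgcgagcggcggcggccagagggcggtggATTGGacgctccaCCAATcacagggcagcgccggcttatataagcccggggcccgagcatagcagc
HIST1H3D, chr6:26197287-26197536, minus strand: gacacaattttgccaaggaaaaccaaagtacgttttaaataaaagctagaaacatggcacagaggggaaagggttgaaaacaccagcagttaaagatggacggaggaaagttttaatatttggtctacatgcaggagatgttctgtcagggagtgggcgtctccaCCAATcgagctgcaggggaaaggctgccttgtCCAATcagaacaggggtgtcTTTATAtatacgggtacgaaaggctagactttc
The HIST2H2AC stretch held TATAAA at -29 from its start site and again on the other strand at -211, beside HIST2H2BE, the octamer at -197 and 3 CCAAT boxes. The HIST3H2BB stretch held 3 CCAAT boxes and neither other motif, and that of its partner HIST3H2A likewise. HIST1H3D held TATAAA on the other strand at -33 and CCAAT at -85 and -53, and HIST1H1B held CCAAT at -53 and on the other strand at -66. A match is a run of letters and was not tested as a site.

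The filters left 18253 GelNB-CH cells (84.0% of the deposited barcodes) and 9800 Matrigel cells (89.8%). A GelNB-CH cell had a median of 8558 UMIs and a Matrigel cell 14002. Calls of doublets (2 cells in 1 droplet) covered 14.2% of the GelNB-CH and 6.55% of the Matrigel barcodes. Past the other filters they took 30.6% and 12.7% of cycling cells against 11.8% and 5.70% of the others, and 78 barcodes occurred in both libraries. SOX2, the sorted reporter's gene, had a UMI in 11.8% of GelNB-CH cells (exact binomial 95% interval 11.3 to 12.3%) and 18.1% of Matrigel cells (17.4 to 18.9%). Clusters were named only as marker-like groups, and in otic epithelium-, glia- and neuron-like cells the largest cluster was not the same in the 2 libraries. Intervals printed here are exact Poisson, conditional binomial or exact binomial 95% intervals, and they cover counting error only.

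Members gave 173455 UMIs in GelNB-CH (939.5 CPM) and 120682 in Matrigel (769 CPM). HIST1H4C, an H4 gene at chr6:26103876-26104310 on the plus strand (GENCODE v29), supplied 43.9% and 52.6% of them, and the chromosome 6 clusters held 55 of the 70 members. Of all member UMIs, 22.4% in GelNB-CH and 23.8% in Matrigel came from the richest 1% of cells, and 76.8% and 71.7% from the richest 10%. A small share of the cells thus held most of the histone UMIs.

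Cells were called cycling when the raw UMIs of MKI67, TOP2A and UBE2C, which mark G2 and mitosis, summed to at least 3. This took 2019 GelNB-CH cells (11.1%) and 1251 Matrigel cells (12.8%), with medians of 13458 and 20117 UMIs against 8177 and 13435 in the other cells. Members summed to 4232 CPM in cycling GelNB-CH cells (95% interval 4209 to 4255) and 287 in the others. In Matrigel they summed to 2936 CPM (2916 to 2956) and 285. Cycling GelNB-CH cells thus stood 14.8-fold above the others (14.6 to 14.9) and cycling Matrigel cells 10.3-fold (10.2 to 10.4), and cycling cells held 74.5% and 69.7% of all member UMIs. Without HIST1H4C the Matrigel ratio was 6.52. A cycling cell had a median of 47 member UMIs in GelNB-CH and 18 in Matrigel, and another cell 2 and 3.

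Just below the limit, at a sum of 2, the 332 GelNB-CH cells had 688 CPM and the 226 Matrigel cells 397. Just inside it, at a sum of 3, 175 and 118 cells had 1031 and 517 CPM. With no UMI of the 3 genes the levels were 269.8 and 279 CPM. In cells with 7 to 14 such UMIs they were 4871 in GelNB-CH and 2307 in Matrigel, and with 15 or more 4961 and 3929. At each sum from 1 up GelNB-CH cells had the higher histone level and Matrigel cells the greater median depth.

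Of the 70 members, 52 reached a pooled level of at least 1 CPM and were compared gene by gene. HIST1H4F, with 407 UMIs, was the lowest compared, and HIST1H2AD, with 338, the highest left out. Since a member could reach 1 CPM through cycling cells alone, the counts that follow describe the 52 and support nothing. Members at least 2-fold higher in cycling cells numbered 48 in GelNB-CH, where 4.1% of the 16990 compared genes were, and 44 in Matrigel, against 3.93%. Both libraries gave 44 (3.55% of compared genes) at 2-fold and 23 (0.806%) at 10-fold, and no member was 2-fold lower in GelNB-CH (2.75%), in Matrigel (2.48%) or in both (1.22%).

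The 18 others ranged from 338 UMIs to none. HIST1H2AA and HIST1H2BA, a pair known from the germ line, and HIST1H4G had 0 UMIs, which allows up to 0.00878 CPM over both libraries. HIST2H2AA3, HIST2H3A, HIST2H3C and HIST3H3 had 1 or 2. HIST2H2AA3 and HIST2H2AA4, HIST2H3A and HIST2H3C, and HIST2H4A and HIST2H4B are near-identical copies whose reads cannot be assigned surely, so their split is uncertain. HIST1H2BN with HIST1H2AL, and HIST1H3J with HIST1H2AM, overlap on the same strand, as do HIST1H3D and HIST1H2AD with AL031777.3, and these levels are uncertain likewise.

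H1 linker histones, which bind the DNA between nucleosomes, had the largest ratio of the 5 classes between cycling and other cells. H1 genes summed to 1055 CPM in cycling GelNB-CH cells and 514 in Matrigel, a ratio to the other cells of 29.3 and 17.95. HIST1H1A (chr6:26017085-26017732, minus strand) had 424 CPM in cycling and 12.3 in other GelNB-CH cells, and 181 and 6.55 in Matrigel, 34.5-fold and 27.7-fold. HIST1H1D reached 221 and 121 CPM in cycling cells, 29.9-fold and 17.98-fold, and HIST1H1E 80.8 and 46.0 CPM, 13.1-fold and 10.3-fold. With the cycling limit set at 1 UMI in place of 3, the Matrigel ratio of HIST1H1E was 6.65.

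HIST1H1B (chr6:27866849-27867529, minus strand) was nearly silent outside the cycle. It had 155 CPM in cycling and 1.60 in other GelNB-CH cells, and 63.0 and 0.546 in Matrigel, ratios of 97.0 and 115. After thinning each cell to 5000 UMIs the ratios were 40.6 and 43.5. With each cell thinned to 5000 UMIs, 44.5% of GelNB-CH and 25.9% of Matrigel cycling cells had a HIST1H1B UMI. Of resting neuron-like cells (858 and 659 cells), 0.466% and 0.152% had one. Resting cells were chosen for no UMI of MKI67, TOP2A and UBE2C and at most 1 S-phase UMI, so their low share is partly set by that choice. Thinning left out 1939 and 418 shallower cells, and the classes were called anew on the thinned counts. Unthinned, the shares were 56.5% and 39.5% of cycling and 0.688% and 0.557% of resting neuron-like cells, at median depths of 13458 and 20117 and of 6875 and 13147 UMIs. HIST1H1C, an H1 gene described with polyadenylated transcripts, kept more outside the cycle: 174 CPM in cycling against 8.54 in other GelNB-CH cells, and 102 against 10.3 in Matrigel.

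H4 genes carried the most UMIs, 2085 CPM in cycling GelNB-CH and 1815 in Matrigel cells, 17.8 and 15.2 times their level in the others. HIST1H4C alone had 1989 and 1753 CPM in cycling cells and 100.2 and 103 in the others, 19.9-fold and 17.0-fold (11.3-fold in Matrigel at a cycling limit of 1 UMI). It was present well beyond the cycle: thinned to 5000 UMIs, 82.6% and 74.9% of cycling cells had a HIST1H4C UMI, but so did 30.2% and 30.5% of resting neuron-like cells (unthinned, 87.5% and 85.6% of cycling, 39.9% and 54.4% of resting neuron-like cells). HIST1H4E was 3.26-fold and 2.88-fold higher in cycling cells, and HIST1H4J, at 2.46 and 2.76 CPM in cycling cells, was 1.74-fold and 1.95-fold above its level in the others.

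H3 genes summed to 382 and 163 CPM in cycling cells, 24.9 and 14.9 times the level in the others. HIST1H3B had 105 CPM in cycling GelNB-CH and 45.9 in Matrigel cells, 78.5-fold and 85.2-fold. HIST1H3G, at 35.0 and 21.5 CPM, was 102-fold and 61.3-fold higher in cycling cells. After thinning, HIST1H3B stood at 38.6 and 38.7 and HIST1H3G at 39.3 in GelNB-CH. HIST1H3D (chr6:26196840-26197250, minus strand) had 142 and 39.4 CPM in cycling and 5.21 and 1.57 in other cells, ratios of 27.2 and 25.2 (15.4 in Matrigel at a cycling limit of 1 UMI).

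H2A and H2B, which pair with each other in the nucleosome, had the smallest ratios, 5.48 and 3.38 for H2A and 7.24 and 3.93 for H2B. The sums hid a wide spread. HIST1H2AJ was 72.4-fold higher in cycling cells in GelNB-CH and 141-fold in Matrigel (33.1 and 60.9 after thinning), HIST1H2BH 13.6-fold and 8.59-fold, and HIST2H2AC, at 119.8 and 69.3 CPM in cycling cells, 7.09-fold and 5.94-fold. HIST1H2AC, whose transcript extends 1128 bases past its stem-loop, had 42.4 and 32.3 CPM in cycling and 14.9 and 20.7 in other cells, 2.84-fold and 1.56-fold.

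HIST3H2A (chr1:228456979-228457873, minus strand) ran against the others and had the lower CPM in cycling cells of both libraries. CPM is relative to all UMIs, and cycling cells were deeper, with medians of 13458 and 20117 UMIs against 8177 and 13435. A lower CPM here therefore does not mean fewer HIST3H2A UMIs per cell, and thinning to a fixed depth keeps the same relative scale. It had 23.1 CPM in cycling and 35.7 in other GelNB-CH cells, and 23.9 and 38.4 in Matrigel, ratios of 0.646 and 0.623. With cells thinned to 5000 UMIs, 8.99% and 8.55% of cycling cells had a HIST3H2A UMI against 17.0% and 16.9% of resting cells (unthinned, 23.4% and 31.7% against 25.6% and 34.3%). The lower CPM in cycling cells was also seen within lineages, where the mix of cell types is closer. In otic epithelium-like cells HIST3H2A had 33.9 CPM in cycling and 53.5 in resting GelNB-CH cells, and 34.8 and 57.8 in Matrigel. In mesenchyme- or cartilage-like cells it had 10.8 and 15.2 CPM in GelNB-CH and 12.2 (10.2 to 14.5) and 14.9 (13.2 to 16.7) in Matrigel, where the intervals overlap. In glia-like cells it had 27.7 and 39.6 CPM in GelNB-CH and 27.4 and 47.7 in Matrigel.

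HIST2H2BE gave 7.79 CPM in cycling and 5.94 in other GelNB-CH cells and 4.26 and 5.21 in Matrigel, so its ratio of 1.31 in one library was 0.818 in the other. At a cycling limit of 1 UMI the GelNB-CH ratio was 0.977, and after thinning the Matrigel ratio was 1.014, so its direction depended on these settings. HIST1H2BD stood at 1.95 and 1.37.

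**Figure D1:**
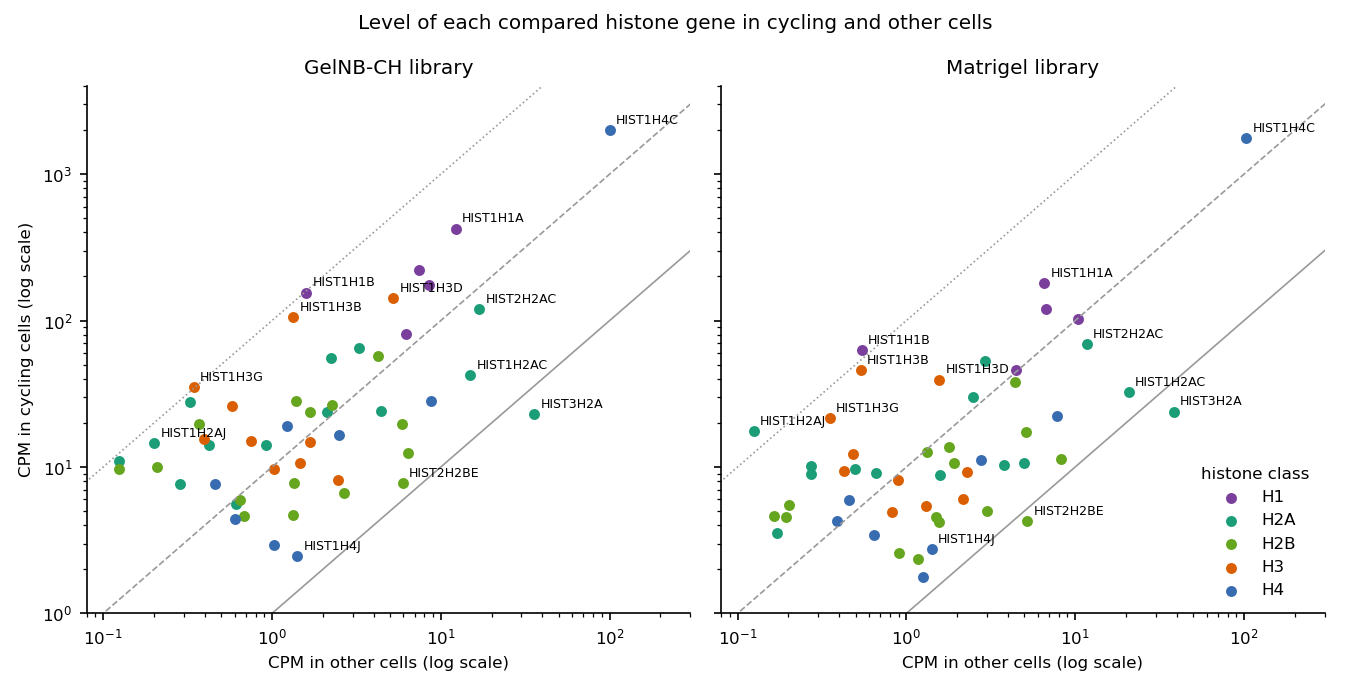
CPM of each of the 52 compared members in other cells (x axis, log scale) and cycling cells (y axis, log scale), 1 panel per library, with the point colour giving the histone class. HIST1H4C is at the top right with 1989 and 1753 CPM in cycling cells, and HIST3H2A is the member that is higher in other than in cycling cells in both panels.

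Cycling ratios differed between the kinds of gene model, though not in the same order in both libraries. The 25 compared members whose model holds the coding part only had a median cycling ratio of 26.6 in GelNB-CH and 18.1 in Matrigel, and 0 and 1 of them were under 4-fold. The 16 whose transcripts extend over 100 bases past the stem-loop had medians of 5.09 and 3.14, and 8 and 10 of them were under 4-fold. Ratios of these 16 ran from 0.646 to 102 in GelNB-CH and from 0.623 to 61.3 in Matrigel. Models that end near the stem-loop gave 7.31 and 2.44 over 6 members. The 5 compared members whose fuller model had no stem-loop match gave 13.1 and 10.3. Their group held the most UMIs in cycling cells, 2152 and 1841 CPM. Most of these came from 1 gene in it, HIST1H4C, which alone gave 47.0% and 59.7% of all member UMIs in cycling cells. HIST2H2BE extends 1729 bases past its stem-loop and HIST3H2A 390. Which reads the authors' counting assigned to a gene depends on such models, and its part in these ratios was not tested.

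H2A and H2B genes often lie head to head, starting from opposite ends of 1 short stretch of DNA. There were 11 such pairs with start sites under 1000 bases apart, 8 of them with both members compared. Partners did not always move alike. The pair HIST2H2BE and HIST2H2AC, whose start sites are 323 bases apart in GENCODE v29, had cycling ratios of 1.31 and 7.09 in GelNB-CH and 0.818 and 5.94 in Matrigel, although the stretch between them, printed above, holds TATAAA near both ends.

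HIST3H2A and HIST3H2BB, 234 bases apart, had ratios of 0.646 and 6.82 in GelNB-CH and 0.623 and 2.86 in Matrigel. HIST1H2BC and HIST1H2AC, 219 bases apart, had 14.1 and 2.84 in GelNB-CH and 7.76 and 1.56 in Matrigel. HIST1H2BL and HIST1H2AI, 268 bases apart, had 79.1 and 89.5 in GelNB-CH and 23.5 and 37.0 in Matrigel. Over the 8 pairs the larger ratio exceeded the smaller by a factor between 1.13 and 10.6 in GelNB-CH and between 1.012 and 9.04 in Matrigel.

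Because the 3 rule genes mark G2 and mitosis, cells were also split with 16 S-phase genes, none of them a histone. Cells with at least 5 S-phase UMIs and cycling by the rule (1724 and 1061 cells) had 4623 and 3248 CPM. Cells cycling by the rule but with under 5 S-phase UMIs (295 and 190) had 777 and 426 CPM, and resting cells, with at most 1 S-phase UMI and none of the rule genes (11757 and 5313), 272 and 281. The first class stood 17.0 and 11.6 times above resting cells. After thinning to 5000 UMIs it stood 25.6 and 20.1 times above, and without HIST1H4C in Matrigel 6.90 times.

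Cells with S-phase UMIs but outside the rule (1550 and 913) were close to resting cells: 373 CPM in GelNB-CH, 1.37 times resting (1.34 to 1.41), and 298 in Matrigel, 1.06 times (1.03 to 1.09). Classes split within them. H1 was 2.29 and 1.47 times resting, H3 2.34 and 1.14 times and H4 1.747 and 1.38 times, whereas H2A was 0.705 and 0.665 times and H2B 0.822 and 0.832 times. Only 2.90% and 1.10% of these cells carried at least 2000 CPM of histone UMIs.

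Within cycling cells, position was read from the share of S-phase UMIs among the UMIs of the S-phase genes and 12 later genes, over 2001 and 1224 cells with at least 5 such UMIs. The summed members were highest in the middle. In groups with an S-phase share under 25%, of 25 to 50%, of 50 to 75% and of 75% or more they had 2638, 6034, 6599 and 2194 CPM in GelNB-CH and 1625, 4574, 5040 and 1872 in Matrigel. The median number of member UMIs per cell went from 10 through 90 and 93.5 to 13 in GelNB-CH, and from 9.5 through 89.5 and 97.5 to 16.5 in Matrigel.

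HIST1H1A followed this course, with 239, 606, 699 and 205 CPM in GelNB-CH and 84.6, 314, 305 and 130.2 in Matrigel. HIST1H4C had 1325, 2926, 2975 and 1014 CPM in GelNB-CH and 984, 2776, 2967 and 1089 in Matrigel. HIST3H2A did not peak there in GelNB-CH: its levels were 29.98, 28.6, 19.1 and 14.03 CPM, lowest where the S-phase share was highest, and in Matrigel 24.6, 30.7, 20.7 and 14.5. HIST2H2BE, by contrast, had its higher values in the middle, in GelNB-CH at 4.93, 11.1, 12.1 and 4.07 CPM, as in Matrigel at 3.93, 6.07, 5.17 and 1.90.

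**Figure D2:**
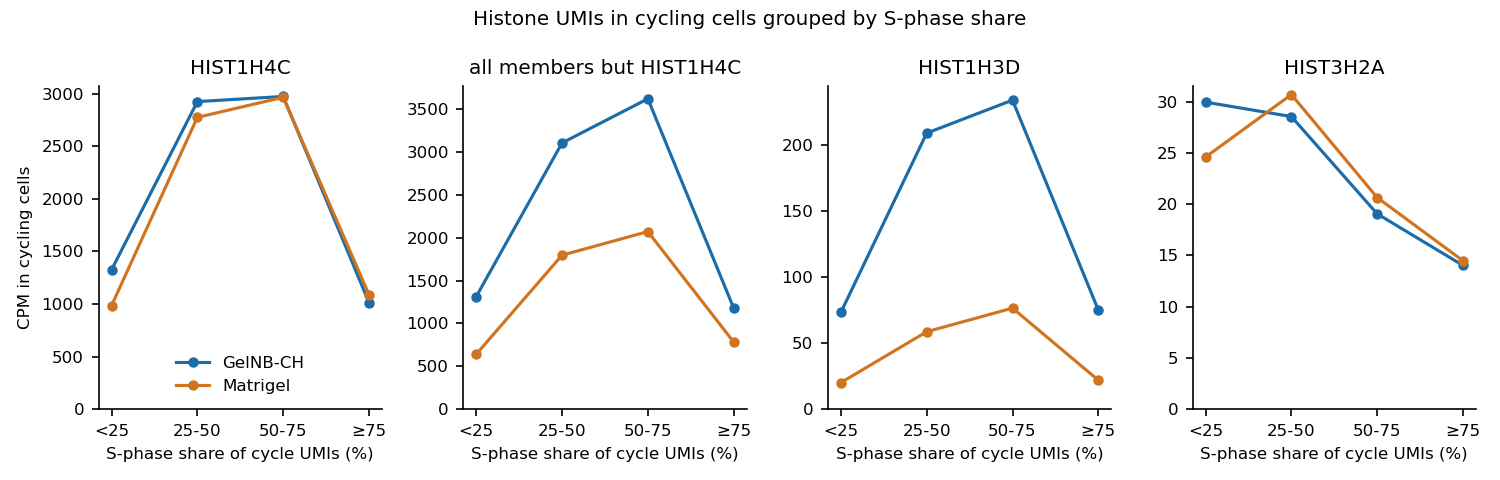
CPM in cycling cells (y axes) over 4 groups of cells by the S-phase share of their cycle UMIs in percent (x axes). Panels give HIST1H4C, all members but HIST1H4C, HIST1H3D and HIST3H2A, with 1 line per library. The members other than HIST1H4C peak at 3624 CPM in GelNB-CH and 2073 in Matrigel where the share is 50 to 75%. HIST3H2A is lowest at 75% or more in both.

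Histone load per cell was uneven even among cycling cells. In GelNB-CH 56.9% of cycling cells (1148) carried at least 2000 CPM, 22.7% carried under 500 and 20.5% lay between. In Matrigel 40.3% (504) carried at least 2000, 37.9% under 500 and 21.8% between. The limits are settings, and 107 and 53 cycling cells lay between 1600 and 2500 CPM, on either side of the upper one. Of all high-load cells, 93.3% and 82.4% were cycling by the rule, and 0.272% and 1.60% of resting cells were high.

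By position the share of high-load cells was 31.7%, 81.3%, 90.4% and 37.9% in GelNB-CH and 18.1%, 61.02%, 77.2% and 34.6% in Matrigel. Within high-load cells the level lay between 5249 and 7319 CPM in GelNB-CH and between 4737 and 7216 in Matrigel. High-load cells were chosen for at least 2000 CPM, which bounds their level from below. The spread of that level therefore cannot be set against the spread of their share.

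**Figure D3:**
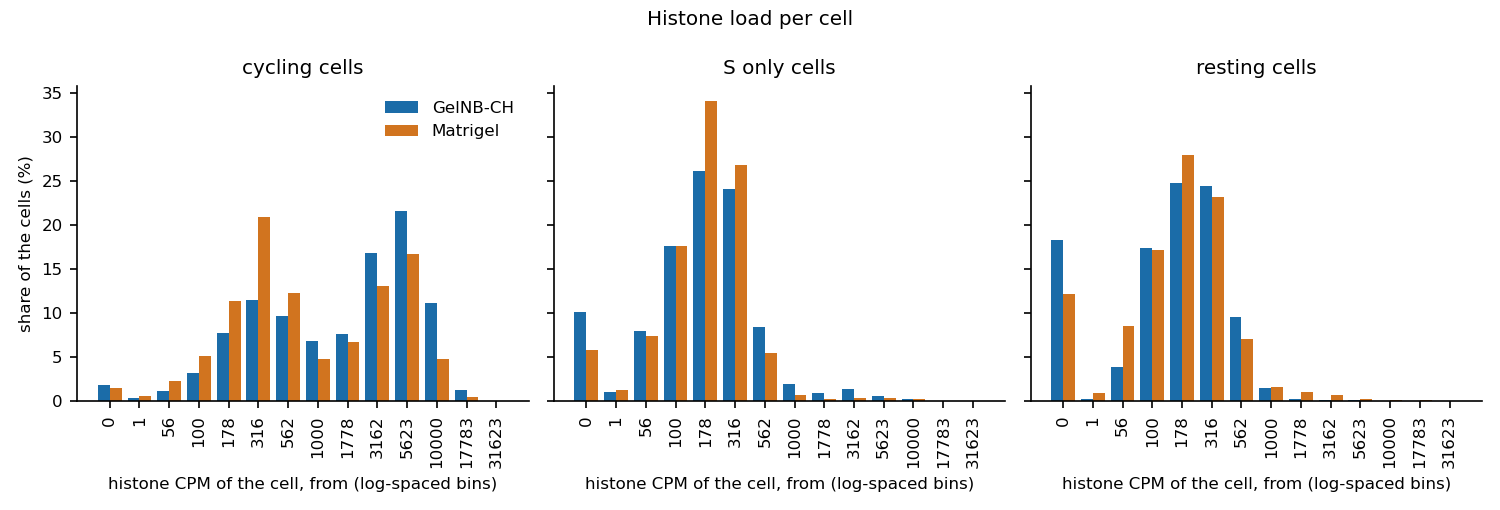
Share of cells in percent (y axis) over bins of the histone CPM of each cell (x axis, log-spaced bins), in cycling and resting cells with 1 bar colour per library. Cycling cells spread over low and high bins, with 56.9% of GelNB-CH and 40.3% of Matrigel cells at 2000 CPM or more, against 0.272% and 1.60% of resting cells.

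Resting cells still held histone UMIs, and in another mix. H4 made up 38.7% and 39.2% of them, H2A 32.4% and 33.9%, H2B 13.4% and 13.8%, H1 10.9% and 9.17%, and H3 4.69% and 3.89%. In cycling cells H4 was 49.3% and 61.8%, H1 24.9% and 17.5% and H2A 10.7% and 10.2%. The mix thus differed between the cell classes, and the part of free RNA in the resting UMIs was not tested.

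The 9 members described with polyadenylated transcripts are HIST1H1C, HIST1H2AC, HIST1H2BC, HIST1H2BD, HIST1H2BK, HIST1H2BJ, HIST2H2BE, HIST1H4H and HIST3H2A. They gave 30.7% and 34.4% of the member UMIs in resting cells, at 83.4 and 96.8 CPM, and 7.41% and 7.02% in cycling cells, at 314 and 206 CPM. The other 61 members went from 188 and 184 CPM in resting to 3918 and 2730 in cycling cells. Of the 9, 6 in GelNB-CH and 4 in Matrigel were at least 2-fold higher in cycling cells, their median log2 ratio being 2.52 and 1.00, against 3.79 and 3.15 over the 52 compared members and -0.05 in both libraries over all compared genes.

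Within these 9 the resting levels differed widely. HIST3H2A led at 39.3 CPM in resting GelNB-CH and 41.1 in resting Matrigel cells, followed by HIST1H2AC at 16.7 and 23.5, HIST1H1C at 7.53 and 9.38 and HIST2H2BE at 6.87 and 5.73. HIST1H2BC, HIST1H2BK and HIST1H2BJ were low outside the cycle, at 1.68, 0.643 and 1.35 CPM in other GelNB-CH cells and 1.78, 1.17 and 1.497 in Matrigel, and were 14.1-fold, 9.27-fold and 5.75-fold higher in cycling GelNB-CH cells and 7.76-fold, 2.00-fold and 3.05-fold in Matrigel. HIST1H4H was 6.61-fold and 4.00-fold higher in cycling cells.

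HIST3H2A differed by lineage among resting cells. It was lowest in mesenchyme- or cartilage-like cells, at 15.2 CPM in GelNB-CH and 14.9 in Matrigel. Otic epithelium-like cells had 53.5 and 57.8 CPM, neuron-like cells 61.5 and 49.8, Schwann or satellite glia-like cells 39.6 and 47.7, and keratinised epithelium-like cells 35.8 and 48.1. Central nervous system progenitor-like cells had 36.1 CPM in GelNB-CH. In both libraries the mesenchyme- or cartilage-like cells were thus over 2-fold below each of the other named groups given here. HIST1H4C varied less over the named resting groups, GelNB-CH values lying between 62.98 CPM, in central nervous system progenitor-like cells, and 90.2 CPM, and Matrigel values between 82.5 and 100.9.

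Other members had other orders. HIST1H2AC was highest in resting glia-like cells, at 24.0 and 37.6 CPM, and 10.2 and 13.3 in mesenchyme- or cartilage-like cells. HIST2H2AC, by contrast, was at 24.5 and 13.6 in mesenchyme- or cartilage-like cells and 11.3 and 7.45 in otic epithelium-like cells. HIST1H1C had 15.3 and 17.3 CPM in glia-like and 5.76 and 3.70 in neuron-like cells. Summed over members, resting otic epithelium-like cells stood 1.27 times (1.24 to 1.31) above mesenchyme- or cartilage-like cells in GelNB-CH and 1.49 times (1.44 to 1.55) in Matrigel.

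Resting cells with few UMIs had a higher histone CPM. Under 3000 UMIs the members summed to 527 CPM (472 to 587) in 272 GelNB-CH cells and 1979 (1828 to 2139) in 139 Matrigel cells. Between 12000 and 24000 UMIs they summed to 252.5 and 260.2 CPM. The shallow cells were 2.31% and 2.62% of resting cells, with median mitochondrial shares of 4.18% and 1.91% against 2.47% and 2.27% in the others, and whether they are whole cells was not tested.

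The mix in these shallow cells differed from that of cycling cells in its part of HIST1H4C. HIST1H4C had 97.8 of 527 CPM in GelNB-CH and 293 of 1979 CPM in Matrigel. In cycling cells it was 47.0% and 59.7% of member UMIs. In Matrigel HIST1H4C was 3.15 times its level in deeper resting cells. The ratios of single other members rest on few UMIs in the shallow cells. HIST1H3J was 64.2 times (41 UMIs), HIST1H3A 41.1 times (16), HIST1H2BJ 24.2 times (11) and HIST1H2BD 13.0 times (36). HIST1H3B, 85.2-fold higher in cycling Matrigel cells, was 54.0 times (4 UMIs), and HIST1H2BH, 8.59-fold higher, was 31.1 times (31). In GelNB-CH HIST1H4C was 1.11 times (0.853 to 1.43), HIST1H3J 25.3 times (20 UMIs), HIST1H3A 13.5 times (8) and HIST1H2BJ 14.9 times (12). HIST3H2A was 0.521 times in GelNB-CH (0.277 to 0.891) and 1.37 times in Matrigel (0.809 to 2.16), where the interval holds 1. HIST1H3J itself was 8.78-fold and 4.05-fold higher in cycling than in other cells, against 19.9-fold and 17.0-fold for HIST1H4C.

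**Figure D4:**
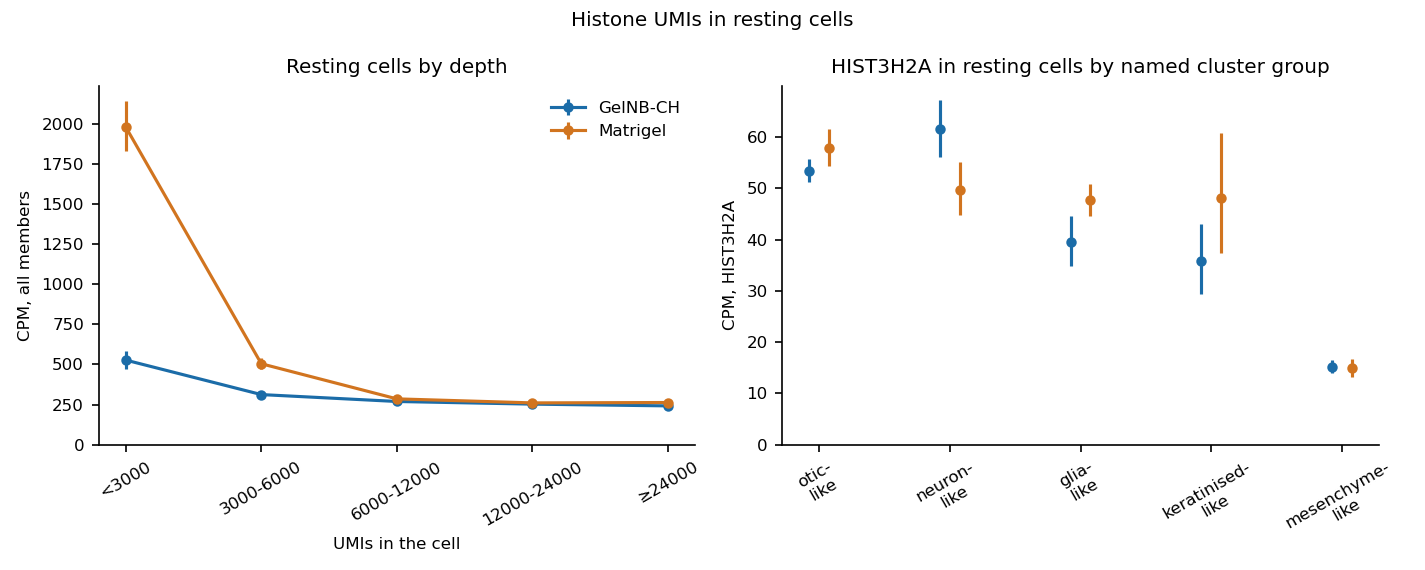
Left, CPM of all members in resting cells (y axis) by UMIs in the cell (x axis); right, CPM of HIST3H2A in resting cells by marker-like group, with bars for the 95% counting intervals and 1 colour per library. The shallowest Matrigel cells stand at 1979 CPM, and mesenchyme- or cartilage-like cells have the lowest HIST3H2A, 15.2 and 14.9 CPM.

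Histone UMIs of cycling cells were compared for lineages with at least 50 such cells in a library. Mesenchyme- or cartilage-like cells were cycling in 13.7% and 16.2%, with 5165 and 3347 CPM in those cells. Otic epithelium-like cells were cycling in 10.0% and 10.9%, with 3598 and 2257 CPM. Glia-like cells were cycling in 8.21% and 13.0%, with 3577 and 3113 CPM, and in Matrigel the 77 cycling neuron-like cells had 3835 CPM. Central nervous system progenitor-like cells of GelNB-CH had the highest cycling share of these lineages, 31.9% (217 cells), with 4085 CPM. Cluster 10, of the mesenchyme-like group, was led by cell-cycle genes, and TOP2A was among the leading genes of cluster 14 (otic-like) and cluster 22 (glia-like). The clustering left out members and the listed S-phase, MCM, PCNA and G2/M genes. Other cycle genes, such as DLGAP5 and ASPM, were not left out.

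Between the libraries, members were higher in GelNB-CH cycling cells. The sum was 1.44 times that of Matrigel (1.43 to 1.45), but HIST1H4C only 1.13 times (1.12 to 1.15) and the other 69 together 1.90 times. HIST1H4C turned to 0.987 with doublets kept and 0.988 over all deposited barcodes, so its direction rested on the removal of doublets. The interval lay above 1 for 42 of the 52 compared members, below it for 3 and held 1 for 7. Interval counts over all compared genes are not given here. By ratio alone, 47 of the 52 were higher in GelNB-CH, against 7252 of the 16990 compared genes. Members at least 2-fold higher numbered 18 in GelNB-CH (1.91% of compared genes) and 0 in Matrigel (3.87%). The median log2 ratio was 0.78 over members and -0.06 over all compared genes.

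HIST1H3D stood out, at 142 against 39.4 CPM in cycling cells, 3.60 times (3.37 to 3.85). An earlier account of these data already singled it out, so this is a description. In resting cells it was 2.61 times higher in GelNB-CH, at 4.58 against 1.753 CPM, so the gap was not limited to the cycle. Among high-load cycling cells, a class chosen on the sum of members, that sum differed by 1.09 times. HIST1H3D was there at 234 against 87.8 CPM, 2.67 times. By lineage its ratio in cycling cells was 4.46 in otic epithelium-like, 4.42 in mesenchyme- or cartilage-like and 2.63 in glia-like cells.

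Other members with large ratios in cycling cells were HIST1H2AB at 4.00 times, HIST1H2BB at 3.59, HIST1H4D at 3.22, HIST1H1B at 2.46 and HIST1H1A at 2.34. HIST3H2A was level at 0.965 (0.868 to 1.07), and HIST1H2AH was at 1.05. A few ran the other way: HIST2H2AA4 was at 0.524, HIST1H2AM at 0.783 and HIST1H2AJ at 0.827. In resting cells HIST2H2AA4 had 0.654 CPM in GelNB-CH and 5.63 in Matrigel, a ratio of 0.116, with the doubt about its near-identical copy.

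Cycling cells of the libraries also differed in cycle genes. The 16 S-phase genes were all higher in GelNB-CH cycling cells, with a median log2 ratio of 0.28 and none 2-fold apart, and 1 of 17 G2/M genes was higher (median -0.16). With lineage and cycle position weighted to the same make-up, the sum of members was 1.36 times higher in GelNB-CH, the members other than HIST1H4C 1.77 times, HIST1H4C 1.08 times and HIST1H3D 3.67 times. Among high-load cells alone, the sum was 1.09 times, HIST1H4C 0.838 times and the others 1.48 times. These cells were chosen on the sum, so its ratio among them is partly set by the limit. Library, matrix and any handling difference cannot be told apart with 1 library each.

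The library difference was also not alike in each lineage. In cycling cells the members other than HIST1H4C were 2.03 times higher in GelNB-CH in otic epithelium-like cells, 2.11 times in mesenchyme- or cartilage-like and 1.48 times in glia-like cells. HIST1H4C was 1.28, 1.20 and 0.893 times. Most otic epithelium-like cells were in clusters 11 and 12 in GelNB-CH and 13 and 4 in Matrigel, and most glia-like cells in 16 and 15 in GelNB-CH and 15 and 16 in Matrigel. Mesenchyme- or cartilage-like cells were mostly in clusters 2, 3 and 1 in GelNB-CH and 2, 1 and 9 in Matrigel.

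Resting cells of the libraries differed little in sum. Members had 272 and 281 CPM, and in cells with at least 3000 UMIs the ratio was 0.988 (0.970 to 1.007). Intervals lay above 1 for 12 members, below it for 12 and held 1 for 28. Interval counts over all compared genes are not given for resting cells either, so these counts only describe the members. By ratio alone, 22 of the 52 were higher in GelNB-CH, near the share over all compared genes (7062 of 16990). Members 2-fold higher in resting cells numbered 4 in GelNB-CH (1.54% of compared genes) and 4 in Matrigel (3.1%). Over all cells, 8 members were 2-fold higher in GelNB-CH (1.24%) and 1, HIST2H2AA4, in Matrigel (2.54%).

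**Figure D5:**
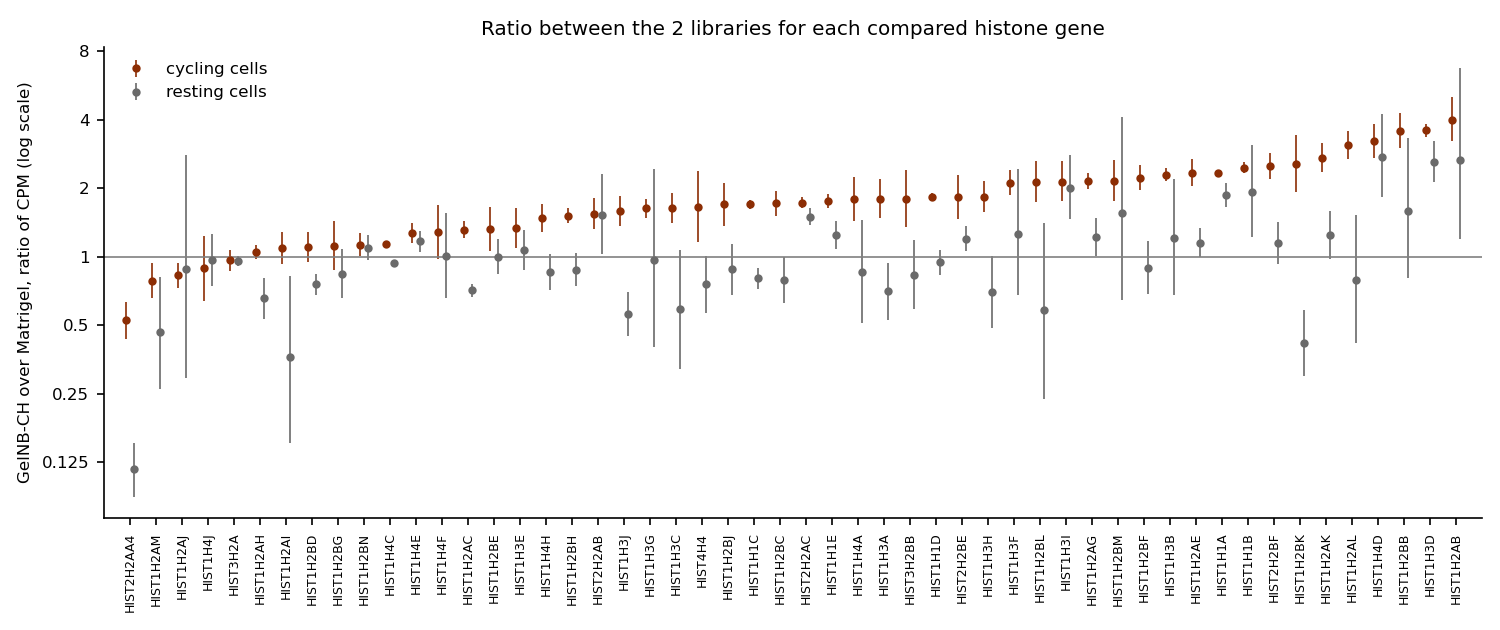
Ratio of CPM, GelNB-CH over Matrigel (y axis, log scale), for each compared member in cycling and in resting cells, with bars for the 95% counting intervals. In cycling cells 47 of the 52 members are above 1, HIST1H3D at 3.60, against 7252 of the 16990 compared genes. In resting cells 22 are, near the share over all compared genes (7062 of 16990).

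Genes that make, process and handle histone mRNA and protein were read from lists. Of 17 listed genes for histone transcription and 3′ end processing, 1 in GelNB-CH (4.1% of all compared genes) and 0 in Matrigel (3.93%) were at least 2-fold higher in cycling cells, a share near that of all compared genes, with a median log2 ratio of 0.36 and 0.32. SLBP, the stem-loop binding protein, was 2.01 and 1.62 times higher, NPAT, the coactivator of histone loci, 1.58 times in both, and CASP8AP2 1.93 and 1.71 times. These ratios were smaller than the 14.8 and 10.3 of the summed members.

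Of 13 histone chaperones, 6 were at least 2-fold higher in cycling cells in each library, against 4.1% and 3.93% of all compared genes (median log2 ratio 0.94 and 0.84). ASF1B, which hands on H3 and H4, was 12.2-fold and 18.4-fold higher, CHAF1A, of the chromatin assembly factor, 5.90-fold and 5.40-fold, and NASP, an H1 and H3 chaperone, 2.36-fold and 2.30-fold. Of 11 compared replacement variant genes, which as a group are not limited to S phase, 5 were at least 2-fold higher in each library, against the same background (median 0.85 and 0.75). CENPA, the centromere H3, was 35.0-fold and 30.5-fold higher, H2AFX 8.64-fold and 9.77-fold and H2AFZ 4.53-fold and 4.74-fold, whereas H3F3A stood at 1.09 and 1.17, H3F3B at 0.936 and 0.954 and H1F0 at 1.12 and 0.910.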

How the data were processed

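SOX2 reporter-positive cells of day 40 organoids were measured as 1 library per group with the 10x 3′ assay v3.1. The authors deposited raw UMI counts per gene and cell barcode, made with Cell Ranger 7.1.0 per the file headers (4.0.0 per the labels' protocols), with STAR and GRCh38/hg38 per the submitters' processing notes. For the annotation and the strand and intron settings, the version or setting was not given in the sources used here.

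Members and lists were chosen with earlier results of these data known. From the counts, cells with at least 1000 genes and at most 15% mitochondrial UMIs were kept, and doublets called by scanpy 1.11.5 (Scrublet, at an expected 0.8% per 1000 barcodes) were removed. The Leiden clustering used 2000 variable genes with members and the listed cycle genes left out, 30 components, 15 neighbours and resolution 1. A cluster was named where at least 3 markers and 30% of its list were detected and enriched. It was left unnamed where another list had more genes among its leading genes, as in clusters 5 and 17. This rule was set after the clusters were seen. Resting, S-phase and cycling classes used the UMI limits given with the results. CPM is member UMIs over all UMIs of the pooled cells, ratios are of CPM, and a member was called at 2-fold. Intervals came from scipy 1.17.1, and edgeR 4.0.16 gave TMM factors as an alternative. Cells of 1 library are not replicates, so no test across cells was made. The scripts for ratios and intervals were tested on simulated data.

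Members named are the 12 with most UMIs, the 4 largest and 4 smallest ratios of each contrast, HIST1H3D, the polyadenylated list and those with 0 UMIs. HIST1H4E, HIST1H2AH, HIST1H3A, HIST1H3J, HIST3H2BB, HIST1H2BL, HIST1H2AI, HIST1H4F, HIST1H2AD and those with 1 or 2 UMIs or shared sequence were named after their values were seen. The analyses of cycle position, load, gene pairs and resting depth were also added after the data were seen. The alternatives tried are in the closing section.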

Additional observations from a re-analysis of the deposited data

Results flagged for a closer look

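Members whose contrast differed in sign between the libraries or between cell classes are given as values, and none of these differences was tested. HIST2H2BE was above its level in other cells in cycling GelNB-CH cells, at a ratio of 1.31, and below it in Matrigel, at 0.818, though each turned under another setting. The remaining members were higher in GelNB-CH than in Matrigel among cycling cells but lower among resting cells, with counting intervals on opposite sides of 1. In resting cells with at least 3000 UMIs the intervals of HIST1H3A (0.773, 0.570 to 1.05) and HIST1H2BC (0.844, 0.666 to 1.07) held 1, and HIST1H4C in cycling cells was 0.987 with doublets kept. HIST1H2BK had a ratio of 2.55 in cycling and 0.418 in resting cells, and HIST1H3J 1.58 and 0.559. HIST1H3A had 1.80 and 0.704, HIST1H2BC 1.72 and 0.791, and HIST1H1C 1.70 and 0.802. HIST1H2AC had 1.31 and 0.711, and HIST1H4C 1.13 and 0.936. HIST1H1C, HIST1H2AC, HIST1H2BC and HIST1H2BK are on the list of members described with polyadenylated transcripts, whose median log2 ratio between libraries was 0.76 in cycling and -0.32 in resting cells.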

How the results depend on the processing

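The summed ratios and the counts of members were recomputed under other settings, and 85 values stayed within the counting interval of the reported one, or within 1.5 times for a count, while 62 moved further. None of these reversed, but counts and ratios of the highest over the lowest lineage could not reverse under any setting. The cause of a shift was not tested. The cycling ratio of summed members (14.8 in GelNB-CH, 10.3 in Matrigel) was 12.01 and 9.74 over all deposited barcodes, 12.1 and 9.83 with doublets kept, 10.9 and 6.92 at a cycling limit of 1 UMI, 13.95 and 10.9 after thinning, 14.9 and 10.6 under a stricter cell filter, and 12.03 and 6.52 without HIST1H4C. In Matrigel it was 11.4 at a limit of 6 UMIs and 10.5 without cells under 3000 UMIs. The ratio of S and G2/M cells to resting cells (17.0 and 11.6) was 13.7 and 10.8 over all barcodes, 13.8 and 10.9 with doublets kept, 25.6 and 20.1 after thinning, 17.97 and 12.9 at S-phase limits of 10 and 0, and 13.3 and 6.90 without HIST1H4C. In Matrigel it was 11.98 under the stricter filter and 11.9 without cells under 3000 UMIs.

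By lineage, the value recomputed was the highest lineage over the lowest, and the pair could change with the setting. In resting cells (otic epithelium-like over mesenchyme- or cartilage-like, 1.27 and 1.49) it was 1.44 without HIST1H4C in GelNB-CH, of glia-like over mesenchyme- or cartilage-like cells. In Matrigel it was 1.74 without HIST1H4C for the reported pair, 1.43 with doublets kept for otic epithelium- over neuron-like, and 1.76 at Leiden resolution 0.5 for keratinised epithelium- over mesenchyme- or cartilage-like cells. In cycling GelNB-CH cells (mesenchyme- or cartilage-like over glia-like, 1.44) the mesenchyme stayed highest. Over otic epithelium-like cells it was 1.39 without HIST1H4C, 1.49 at resolution 0.5, 1.56 at a limit of 6 UMIs and 1.56 after thinning, over keratinised epithelium-like cells 3.199 at a limit of 1 UMI and 2.05 with doublets kept, and over glia-like cells 1.51 at resolution 2.0. In cycling Matrigel cells neuron- over otic epithelium-like (1.70) gave 1.42 without HIST1H4C, 1.79 at resolution 0.5, 1.56 at a limit of 6 UMIs and 1.41 with doublets kept, and neuron- over keratinised epithelium-like gave 2.64 at a limit of 1 UMI. With the pairs held fixed, the resting pair lay between 1.24 and 1.41 in GelNB-CH and between 1.41 and 1.74 in Matrigel, and the cycling pairs between 1.34 and 1.55 and between 1.41 and 1.81.

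Between the libraries, the ratio in all cells (1.22) was 1.45 without HIST1H4C, 1.26 under the stricter filter, 1.30 with TMM factors, 1.19 with lineages weighted alike and 1.27 after thinning. In cycling cells (1.44) it was 1.90 without HIST1H4C, 1.22 over all barcodes and with doublets kept, 1.53 and 1.40 at limits of 1 and 6 UMIs, 1.51 with TMM factors, 1.42 with lineages weighted alike and 1.36 with lineage and cycle position weighted. TMM moved log2 ratios by 0.09 in all cells and 0.07 in cycling cells.

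Counts of members moved with the rules. The 44 that were 2-fold higher in cycling cells were 13 where a pooled CPM of at least 10 was asked, a limit that also left fewer members to compare. Numbers compared and shares over all genes under each rule are not given here, so these counts describe the rules only. The 0 that were lower became 1 at a fold of 1.5 and 1 where 1 UMI sufficed. The 8 higher in GelNB-CH became 21 at a fold of 1.5 and 4 at 10 CPM, and the 1 higher in Matrigel became 5 where 1 UMI sufficed and 0 at 10 CPM. Of named members, 521 values stayed within their interval, 157 moved and 4 reversed. HIST1H4C between libraries in cycling cells was 0.988 over all barcodes and 0.987 with doublets kept, and HIST2H2BE in cycling over other cells was 0.977 in GelNB-CH at a limit of 1 UMI and 1.014 in Matrigel after thinning. HIST3H2A in cycling over other cells lay between 0.590 and 0.691 in GelNB-CH and between 0.519 and 0.761 in Matrigel, and HIST1H3D between libraries in cycling cells between 2.86 and 3.93. The results on cycle position, load, gene pairs, gene models and shallow cells were not recomputed. The settings for named members and fixed pairs, leaving out HIST1H4C, shared barcodes or cells under 3000 UMIs, and weighting cycle position, were chosen after seeing the data. Leaving out the shared barcodes moved no value beyond its interval. No paired analysis was possible because each group holds 1 library, which also leaves no replicate to leave out.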
